A study of Rattus norvegicus with 3 samples.

Results

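The genes described here are those of the major histocompatibility complex (MHC) and of antigen presentation in the rat's 3 large salivary glands. They were taken by name: probes whose gene name starts with RT1-, the prefix of the rat MHC, or is 1 of 15 names of antigen processing, peptide loading and costimulation. This gave 62 of 41012 probes, under 44 of 35737 gene names. Of the probes, 33 carry class I heavy chain names, 10 carry class I loading and proteasome names, 11 carry class II chain names, 3 belong to Cd74 and Ctss, 2 to the class I-like genes Cd1d1 and Fcgrt, and 2 to Cd80 and Cd86. The last, RT1-Ke4, lies in the complex but is listed by RefSeq as Slc39a7, a zinc transporter. No probe carries the names Ciita or Cd40 themselves. Of the 62 probes, 53 were well above background on at least 1 array.

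The study compared normal sublingual, submandibular and parotid glands of male Wistar rats aged 10 weeks, with 1 single-colour Agilent array per gland. The design text names 3 rats, and how animals map to arrays is not stated by any source read for this work. With 1 array per gland there is no replicate error between animals and no test. A difference is set here against the spread of repeat spots, the spread between probes of 1 gene, and the same measure over all probes. The arrays shared 1 slide, so a gland cannot be told apart from its place on it.

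MHC class I molecules are heavy chains paired with beta-2-microglobulin (B2m), which show peptides from inside the cell to CD8 T cells on nearly every cell type. The peptides are cut by the proteasome, moved into the endoplasmic reticulum by the Tap1 and Tap2 transporter and fitted with the help of tapasin (Tapbp). MHC class II molecules are pairs of an alpha and a beta chain that show peptides from taken-up material to CD4 T cells. They are made mainly by macrophages, dendritic cells and B cells, and by epithelial cells under interferon gamma, and they are assembled on the invariant chain Cd74, which the protease cathepsin S (Ctss) trims.

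Levels are log2 processed signals relative to the array's 75th percentile, which was a signal of 244 (sublingual), 228 (submandibular-labelled) and 186 (parotid). The lowest level well above background was -3.74 for sublingual, -3.58 for submandibular-labelled and -3.43 for parotid. No member spot was saturated or flagged as an outlier. Repeat spots of 1 probe had a median SD of 0.09, 0.08 and 0.09 on those arrays. The mucous cell genes Muc19 and Agr2 were not well above background in the parotid, and the serous products Amy1, Cst5, Prp2 and Pip differed from the parotid on both other arrays by -13.32 to -8.61 on the log2 scale, bounds included. None of 5 probed products of the granular convoluted ducts, which mark the submandibular gland of male rats, was 2-fold higher on the array with the submandibular label than on either other array, so that array is called submandibular-labelled here. Between the sublingual and submandibular-labelled arrays, levels of the 19883 probes above background on all arrays correlated with r = 0.989, across probes that are not independent replicates.

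Class II chains were lower in the sublingual and submandibular-labelled glands than in the parotid. Of 28 class I heavy chain probes, 23 stayed within 2-fold in each gland and 5 were 2-fold lower. Over all probes compared, 12.6% were 2-fold lower and 11.2% 2-fold higher in the sublingual gland, and 13.0% and 9.61% in the submandibular-labelled gland. Of the 11 class II chain probes, 5 were well above background on all arrays, and these differed from the parotid by -2.23 to -1.76 in the sublingual and by -1.98 to -1.52 in the submandibular-labelled gland. A further 2 were above background in the parotid alone, so they could differ in 1 direction only, and enter as bounds. The other 4 could not be compared with the parotid. The median difference of the 7 was -1.82 for sublingual minus parotid and -1.75 for submandibular-labelled minus parotid, a 3.53-fold and a 3.37-fold lower signal. The median of the 28 class I heavy chain probes compared, of 33, was -0.20 and 0.00. Over all probes compared, the median was 0.02 for sublingual minus parotid and 0.00 for submandibular-labelled minus parotid. Both differences share the parotid array, so they are not independent of each other.

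Of the 52 member probes compared between sublingual and parotid, 14 were 2-fold or more below the parotid and 0 as far above it. Over all 24247 probes compared, 12.6% were 2-fold lower and 11.2% 2-fold higher. Between submandibular-labelled and parotid, 14 of 52 member probes were 2-fold lower and 0 were 2-fold higher, where 13.0% and 9.61% of all 23965 probes were. Between sublingual and submandibular-labelled, 0 of 51 member probes differed 2-fold in either direction, where 1.69% of all 23117 probes were higher and 0.554% lower. Called here means past 2-fold, and a probe that was not well above background on 1 side enters with a lower bound of its difference. The balance of directions depends on the scaling. With each array centred on its median, 2 member probes were higher and 10 lower in the sublingual gland, and 4 were higher and 11 lower in the submandibular-labelled gland. Of all probes past 2-fold, 47.0% were higher in the sublingual than in the parotid gland with the main scaling, 67.6% with median centring and 61.4% with normexp background correction. For the submandibular-labelled gland these shares were 42.5%, 68.6% and 54.5%. With normexp, 0 member probes were higher and 8 lower in the sublingual gland, and 1 was higher and 8 lower in the submandibular-labelled gland.

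**Figure D1:**
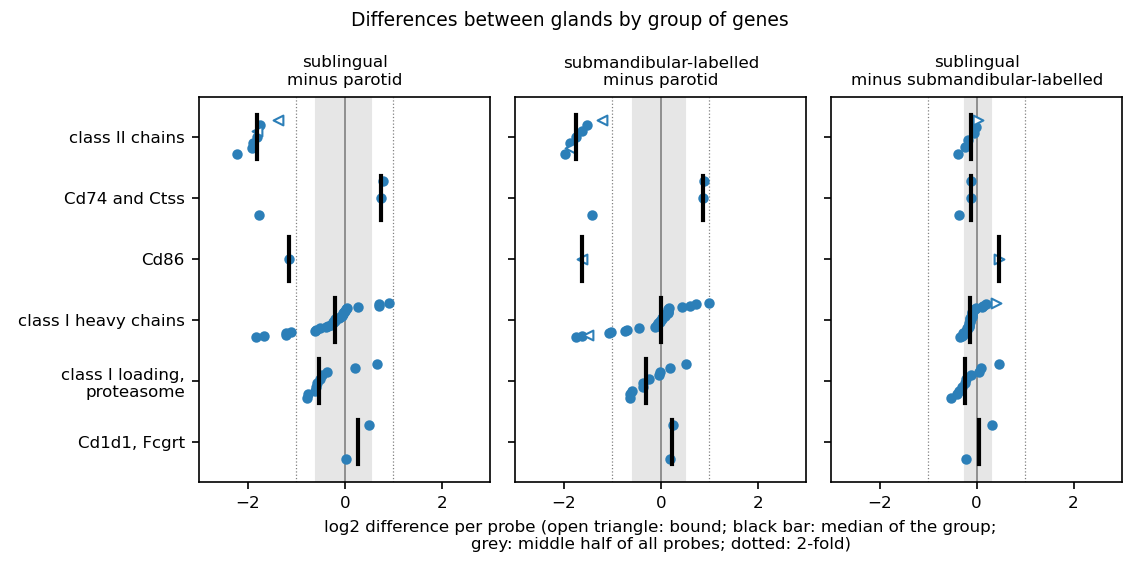
Log2 difference of each member probe (points) by group of genes, for sublingual minus parotid, submandibular-labelled minus parotid and sublingual minus submandibular-labelled. The 7 class II chain probes lie at or below -1.22 in both comparisons with the parotid, while the class I heavy chains spread around medians of -0.20 and 0.00 and no probe passes 2-fold between the other arrays. RT1-Ke4 is not drawn. Triangles are bounds, black bars medians, the grey band the interquartile range of all probes and dotted lines 2-fold.

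RT1-Da, the alpha chain of the D molecule and the rat counterpart of human HLA-DRA, has a pair of probes. The probe at chr20:4641104-4641163 (plus strand, rn4, the build of the array files) had a level of 2.82 in the sublingual, 3.00 in the submandibular-labelled and 4.64 in the parotid gland. It was 3.53-fold lower in the sublingual and 3.10-fold lower in the submandibular-labelled gland than in the parotid. The probe at chr20:4638704-4638763 had 0.07, 0.08 and 1.83 on the same arrays, 3.38-fold and 3.37-fold lower than in the parotid. The log2 differences from these probes were 0.06 apart for sublingual minus parotid and 0.12 apart for submandibular-labelled minus parotid.

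RT1-Db1, the beta chain of the same molecule, has 3 probes, at chr20:4672677-4672736, chr20:4673410-4673469 and chr20:4677050-4677109 (minus strand, rn4). The first had levels of 2.12 in the sublingual, 2.50 in the submandibular-labelled and 4.02 in the parotid gland, 3.73-fold and 2.86-fold lower than in the parotid. The second had 1.05, 1.30 and 3.28. It was 4.70-fold lower in the sublingual gland, and 3.95-fold lower in the submandibular-labelled gland. It was the 1 member of 52 at least 4-fold lower in the sublingual gland, where 2.63% of all probes were, and 0 of 52 were in the submandibular-labelled gland, where 2.93% were. The third was well above background in the parotid alone, at -1.70, and so at least 3.52-fold lower in the sublingual and at least 3.67-fold lower in the submandibular-labelled gland. These bounds hold for the main scaling, and with normexp its differences were -0.86 and -0.81, short of 2-fold.

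The B molecule, the counterpart of human HLA-DQ, was lower in both other glands than in the parotid as well. RT1-Bb, its beta chain, had levels of 1.50 in the sublingual, 1.55 in the submandibular-labelled and 3.42 in the parotid gland with the probe at chr20:4732962-4733021 (minus strand, rn4). It was 3.78-fold and 3.65-fold lower than in the parotid. RT1-Ba, its alpha chain, was well above background in the parotid alone, at -2.36, and so at least 2.60-fold lower in the sublingual and at least 2.33-fold lower in the submandibular-labelled gland. Neither call held in every setting. With normexp its differences were -0.49 and -0.53, and that in the submandibular-labelled gland was -0.93 with quantile normalization and -0.91 with median centring. A second probe of each gene was not well above background on any array.

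RT1-DOa and RT1-DOb form the DO molecule, which restrains peptide exchange on class II in B cells and some other cells. RT1-DOa was well above background in the sublingual gland alone, at -3.55, with measured levels of -3.57 in the submandibular-labelled and -4.23 in the parotid gland, and no fold is given against the parotid because the bound was under 1. RT1-DOb was not well above background on any array.

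**Figure D2:**
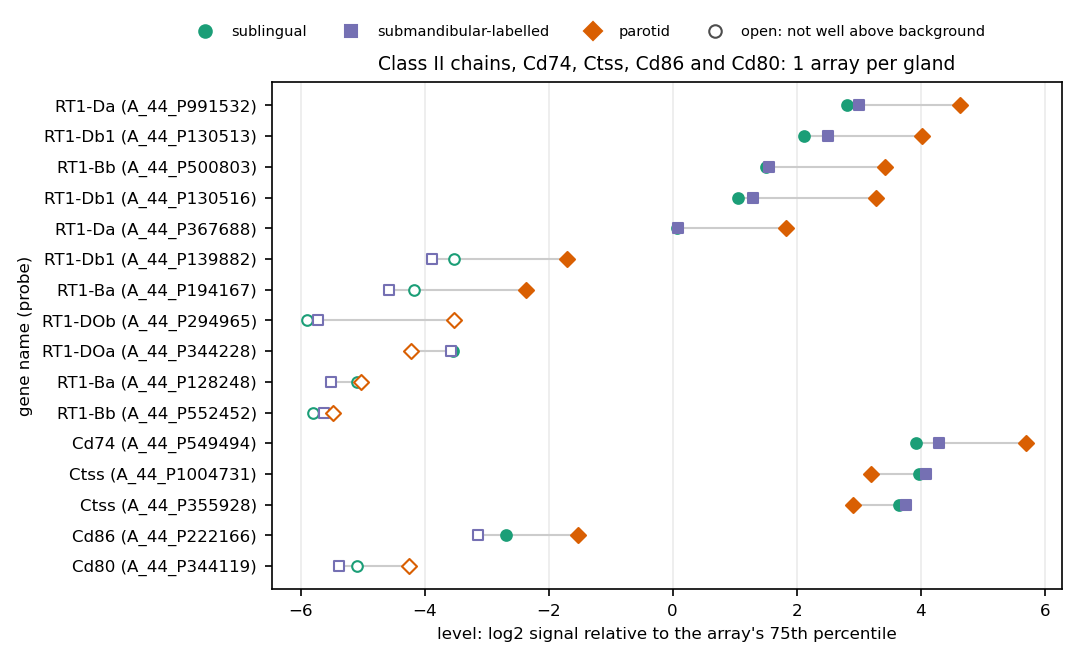
Level of each class II chain, Cd74, Ctss, Cd86 and Cd80 probe on the sublingual (circle), submandibular-labelled (square) and parotid (diamond) array, as log2 signal relative to the array's 75th percentile; open symbols are not well above background. In the 7 chain probes measured in the parotid, and in Cd74, the parotid lies to the right of the other arrays, while both Ctss probes have the parotid on the left.

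Cd74, the invariant chain, went with the chains it serves. Its level was 3.93 in the sublingual, 4.29 in the submandibular-labelled and 5.70 in the parotid gland (chr18:56765468-56765527, plus strand, rn4). It was 3.42-fold lower in the sublingual and 2.65-fold lower in the submandibular-labelled gland than in the parotid. Ctss ran the other way on both of its probes. Its levels were 3.98 and 3.65 in the sublingual, 4.09 and 3.77 in the submandibular-labelled and 3.20 and 2.90 in the parotid gland. These were 1.72-fold and 1.68-fold higher in the sublingual and 1.85-fold and 1.83-fold higher in the submandibular-labelled gland, under 2-fold, and higher under every setting tried.

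Cd86, a costimulatory ligand of CD28 on antigen-presenting cells, had a level of -2.68 in the sublingual and -1.52 in the parotid gland and was not well above background in the submandibular-labelled gland. It was 2.23-fold lower in the sublingual and at least 3.07-fold lower in the submandibular-labelled gland. With normexp both fell short of 2-fold, at differences of -0.61 and -0.66, and the sublingual difference did so with quantile normalization (-0.994) and median centring (-0.91) as well. Cd80, its partner ligand, was not well above background on any array.

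Some probes under older names bear on the same molecules. They are not members, and they were chosen after their values were seen. C2ta, the older name of Ciita, the transactivator on which class II transcription depends, was 2.67-fold lower in the submandibular-labelled gland than in the parotid. In the sublingual gland it was not well above background, and so at least 4.20-fold lower. Its parotid level was -1.67. The bound is that of the main scaling, and the probes of this paragraph were not tried under the other settings. Hla-dma, named RT1-DMa by RefSeq, the alpha chain of the molecule that exchanges peptides on class II, had levels of 2.01 in the sublingual, 2.18 in the submandibular-labelled and 2.96 in the parotid gland, 1.93-fold and 1.73-fold lower than in the parotid. Tnfrsf5, the older name of the costimulatory receptor Cd40, had -1.66, -1.97 and -0.78 on 1 probe, 1.83-fold and 2.28-fold lower than in the parotid, and its other probe was not well above background on any array.

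The promoters of class II genes carry a conserved module in which an X box, bound by RFX proteins, stands a fixed distance before a Y box, bound by NF-Y, and Ciita acts through the proteins on it. Promoters from RefSeq (GRCr8, 250 bases before to 50 after the gene's start) were found for 39 of the 41 RefSeq genes among the members. The following are shown because their genes carry the class II difference (RT1-Da, RT1-Db1, RT1-Bb, Cd74), go the other way (Ctss) or belong to class I (B2m), 5′ to 3′ on the gene's strand. Capitals mark CCAAT, the letters of the Y box, TGACG, those of the X2 box, GCAAC, within the X box, and GAAANNGAAA, the interferon-stimulated response element, each on either strand, so that ATTGG is CCAAT on the other strand. They lie at chr20:4515165-4515464 (plus strand), chr20:4560113-4560412 (minus), chr20:4604069-4604368 (minus), chr18:56526956-56527255 (plus), chr2:185775146-185775445 (plus) and chr3:129549080-129549379 (plus).
RT1-Da: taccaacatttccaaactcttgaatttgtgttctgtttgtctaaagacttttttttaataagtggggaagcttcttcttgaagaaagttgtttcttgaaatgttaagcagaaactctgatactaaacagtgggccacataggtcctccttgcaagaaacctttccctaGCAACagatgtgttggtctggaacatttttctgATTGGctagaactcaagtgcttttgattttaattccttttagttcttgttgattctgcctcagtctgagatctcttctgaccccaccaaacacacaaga
RT1-Db1: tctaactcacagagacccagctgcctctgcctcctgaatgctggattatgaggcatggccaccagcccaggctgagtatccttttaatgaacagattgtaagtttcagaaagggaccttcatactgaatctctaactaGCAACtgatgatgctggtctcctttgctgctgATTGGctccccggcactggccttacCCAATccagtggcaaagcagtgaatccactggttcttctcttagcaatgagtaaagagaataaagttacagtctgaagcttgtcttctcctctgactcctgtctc
RT1-Bb: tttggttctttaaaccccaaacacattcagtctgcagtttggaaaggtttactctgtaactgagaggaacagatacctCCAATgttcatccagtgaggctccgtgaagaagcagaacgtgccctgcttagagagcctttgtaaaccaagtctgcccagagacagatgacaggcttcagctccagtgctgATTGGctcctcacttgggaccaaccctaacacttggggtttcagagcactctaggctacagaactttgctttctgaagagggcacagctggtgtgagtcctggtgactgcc
Cd74: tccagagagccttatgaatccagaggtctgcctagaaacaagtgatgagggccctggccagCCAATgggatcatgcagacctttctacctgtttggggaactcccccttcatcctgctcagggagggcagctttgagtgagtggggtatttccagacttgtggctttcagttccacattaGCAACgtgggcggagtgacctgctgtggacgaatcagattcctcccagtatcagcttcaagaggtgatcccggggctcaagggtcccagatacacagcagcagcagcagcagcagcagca
Ctss: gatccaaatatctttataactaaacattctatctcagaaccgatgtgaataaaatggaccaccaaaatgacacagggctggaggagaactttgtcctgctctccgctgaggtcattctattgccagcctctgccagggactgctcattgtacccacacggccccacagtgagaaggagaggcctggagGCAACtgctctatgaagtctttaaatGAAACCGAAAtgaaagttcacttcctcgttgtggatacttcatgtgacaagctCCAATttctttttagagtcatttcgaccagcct
B2m: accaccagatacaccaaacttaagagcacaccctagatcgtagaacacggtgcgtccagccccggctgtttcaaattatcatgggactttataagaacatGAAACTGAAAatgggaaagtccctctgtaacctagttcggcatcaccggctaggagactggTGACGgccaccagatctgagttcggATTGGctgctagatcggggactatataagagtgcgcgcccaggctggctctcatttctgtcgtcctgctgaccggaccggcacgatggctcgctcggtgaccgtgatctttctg

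CCAAT was found in the promoters of 6 of 6 class II chain genes, 14 of 19 class I heavy chain genes and 3 of 7 class I loading genes, and in 37.5% of all 33469 promoters. In all 6 class II chain genes a copy lay on the other strand, starting at positions -107 to -43 from the gene's start. Copies on that strand lay in the same range in several class I genes, among them RT1-A2 (-80), RT1-CE5 (-72), RT1-N3 (-102) and B2m (-64). The share of all promoters with such a copy was not counted. GCAAC, letters chosen after the promoters had been read, was found in 5 of the 6 class II chain genes, in 7 of 19 class I heavy chain genes and in 35.1% of all promoters. In those 5 genes (RT1-Da, RT1-Db1, RT1-Ba, RT1-DOa and RT1-DOb) GCAAC started 30 to 33 bases before a CCAAT on the other strand. This spacing, also chosen after the promoters had been read, was found in 26 of all promoters (0.0777%), 7 of which belong to RT1- names, the other 2 being RT1-Db2 and RT1-Ha. RT1-Bb, as low as its neighbours in the sublingual and submandibular-labelled glands, lacks GCAAC in this window. The genes with the pair include RT1-DOa and RT1-DOb, which were near or below background.

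GAAANNGAAA was found in 6 of 7 class I loading genes (all but Psmb9), 2 of 19 class I heavy chain genes, 0 of 6 class II chain genes and 3.92% of all promoters. Ctss has this element at position -36 and Cd74 has none. TGACG was found in 1 of 6 class II chain genes (RT1-Ba, on both strands, where the matches overlap), 5 of 19 class I heavy chain genes, 2 of 7 class I loading genes and 21.2% of all promoters. These matches describe letters in a window and are not sites of binding.

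The class II chain genes are interleaved on chromosome 20 with class I loading genes that differed less. In the order of the probes in rn4, RT1-Da, RT1-Db1, RT1-Ba, RT1-Bb and RT1-DOb are followed by Tap2 (chr20:4770747-4770806), Psmb8 (chr20:4787980-4788039), Tap1 (chr20:4792827-4793962), Psmb9 (chr20:4806341-4806400) and RT1-DOa (chr20:4891130-4891189). Tap1 had levels of 0.55 in the sublingual, 0.95 in the submandibular-labelled and 1.32 in the parotid gland, a difference from the parotid of -0.77 and -0.37. Tap2 had 0.33, 0.86 and 0.89, a difference of -0.56 and -0.03. Both transporter chains were therefore lower in the sublingual gland by under 2-fold, and that of Tap2 in the submandibular-labelled gland changed sign with median centring.

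The inducible proteasome subunits did not move as 1 unit. Psmb8 had levels of 1.99 in the sublingual, 2.23 in the submandibular-labelled and 2.59 in the parotid gland, and Psmb9 had 2.68, 3.04 and 3.05. Psmb10, encoded on chromosome 19 in rn4, had 4.82, 4.35 and 4.16. Its sublingual level was 1.58-fold above the parotid, while those of Psmb8 and Psmb9 were 1.52-fold and 1.29-fold below it. The signs of these sublingual differences held in every setting, and those of Psmb9 and Psmb10 in the submandibular-labelled gland did not. Tapbp had 1.95, 2.26 and 1.73, a difference from the parotid of 0.22 and 0.52.

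B2m, the light chain of every class I molecule, had 4 probes at levels between 4.21 and 7.77. All were lower in the sublingual gland than in the parotid, by 1.39-fold to 1.70-fold, and in the submandibular-labelled gland by 1.18-fold to 1.55-fold. The probe with 10 spots averaged 6.59 ± 0.03 in the sublingual, 6.50 ± 0.02 in the submandibular-labelled and 7.11 ± 0.03 in the parotid gland (SD over spots of 1 array). The spots of the parotid array did not overlap with those of either other array, which covers spot error only. Of the probes, 1 (chr3:108933795-108933854) turned to a difference of 0.07 in the submandibular-labelled gland under 1 other setting.

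The class I heavy chains of the RT1-A, classical, and RT1-C/E regions were near equal in the 3 glands. RT1-A2 had levels of 6.26 in the sublingual, 6.33 in the submandibular-labelled and 6.30 in the parotid gland (chr20:5024199-5024258, plus strand, rn4). RT1-CE1 had 6.38, 6.52 and 6.37, RT1-CE12 6.27, 6.43 and 6.28, and the brighter probe of RT1-Cl 6.14, 6.43 and 6.38. Their sublingual differences from the parotid, between -0.24 and 0.01, had no stable sign across the settings. Over the 20 probes compared of A and C/E names, the median difference was -0.16 for sublingual minus parotid and 0.02 for submandibular-labelled minus parotid. These genes are close copies of each other, and a probe may bind the RNA of several, so a level under 1 name may be a sum.

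Probes under 1 name disagreed where copies exist. RT1-Cl was near equal on 1 probe, while its other probe had 3.89 in the sublingual, 3.98 in the submandibular-labelled and 2.98 in the parotid gland, 1.88-fold above the parotid in the sublingual and just under 2-fold in the submandibular-labelled gland. RT1-Aw2 averaged 2.51 ± 0.03, 2.53 ± 0.05 and 1.80 ± 0.06 on a probe with 10 spots (SD over spots), 1.64-fold and 1.66-fold above the parotid, while its other 3 probes differed from the parotid by -0.60 to -0.02. RT1-CE5 was at -1.29, -1.09 and -0.07 on 1 probe, 2.33-fold and 2.03-fold lower than in the parotid, and differed by -0.10 and 0.18 on the other. The differences of the first probe were under 2-fold with normexp (-0.84 and -0.76) and with median centring (-0.98 and -0.71), and in the submandibular-labelled gland with quantile normalization (-0.97). Over the 10 genes with several probes compared, the probes of a gene spanned a median of 0.35 for sublingual minus parotid and 0.33 for submandibular-labelled minus parotid, and at most 1.31 and 1.20. RT1-M6-2 had 1 probe at 6.01, 6.11 and 5.96, and another that was not well above background on any array.

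**Figure D3:**
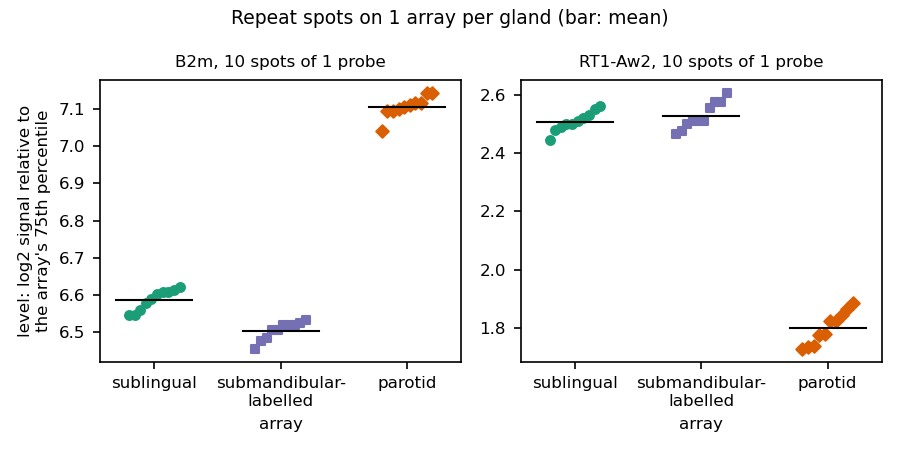
Level of each of 10 spots of the B2m probe (left) and the RT1-Aw2 probe (right) on the sublingual, submandibular-labelled and parotid array, as log2 signal relative to the array's 75th percentile; bars are means and the axes do not start at 0. The B2m spots of the sublingual (mean 6.59) and submandibular-labelled (6.50) arrays all lie below those of the parotid array (7.11), and their RT1-Aw2 spots (2.51 and 2.53) all lie above those of the parotid array (1.80).

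Some non-classical heavy chains were lower with the class II chains. RT1-N1 had levels of -0.82 in the sublingual, -0.73 in the submandibular-labelled and 1.01 in the parotid gland (chr20:2788721-2788780, plus strand, rn4), 3.56-fold and 3.35-fold lower than in the parotid. RT1-N3, encoded nearby, had -1.06, -1.03 and 0.60, 3.16-fold and 3.09-fold lower. RT1-T24-1 had -0.92, -0.78 and 0.30, 2.33-fold and 2.11-fold lower. These 3 were lower under every setting, but RT1-T24-1 was under 2-fold with normexp (-0.91 and -0.84) and with median centring (-0.98 and -0.77). The RT1-CE6 probe belongs to a transcript that RefSeq lists as non-coding. It was 2.16-fold lower in the sublingual and at least 2.83-fold lower in the submandibular-labelled gland, where it was not well above background. With normexp its differences were -0.46 and -0.74, under 2-fold, and that in the sublingual gland was -0.90 with quantile normalization and -0.87 with median centring.

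Over the 8 probes compared of M, N, S and T names, 5 were lower than in the parotid in each gland, 3 of them 2-fold. Of all probes compared, 49.1% were lower in the sublingual and 49.9% in the submandibular-labelled gland, and 12.6% and 13.0% were 2-fold lower. The median difference of the 8 was -0.56 for sublingual minus parotid and -0.71 for submandibular-labelled minus parotid. RT1-M3 and RT1-M5 were lower by under 2-fold. RT1-M3, whose mouse counterpart presents N-formylated peptides, had 1.97, 1.85 and 2.59, a difference from the parotid of -0.62 and -0.74, with the same sign in every setting. RT1-M5 had -1.94, -2.12 and -1.43, a difference of -0.50 and -0.69. RT1-S3, encoded near RT1-N3, was higher than in the parotid on both probes, by 0.28 and 0.70 in the sublingual and by 0.45 and 0.60 in the submandibular-labelled gland. RT1-A3, RT1-M2, RT1-M10-1 and RT1-T24-2 were not well above background on any array.

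**Figure D4:**
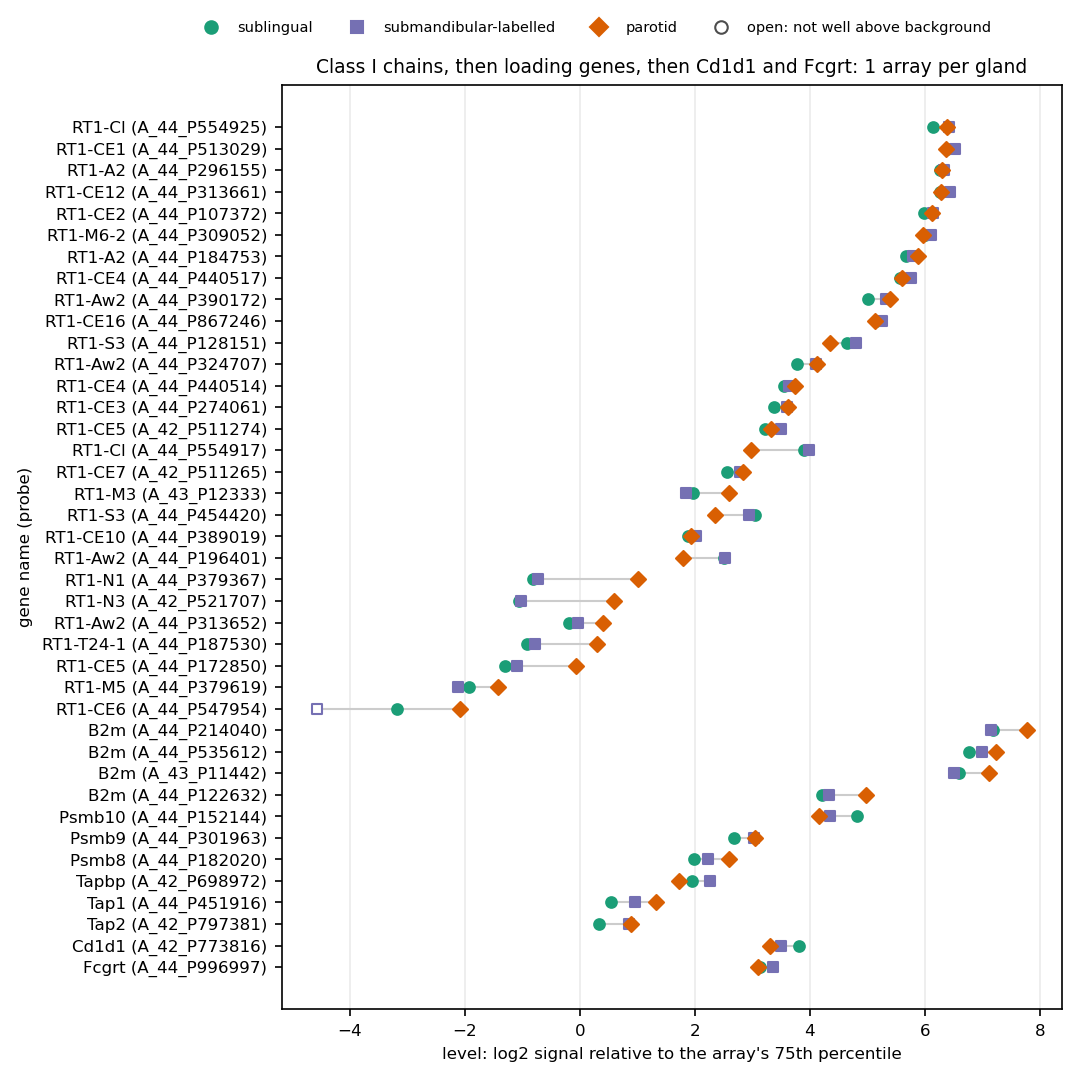
Level of each class I probe well above background on at least 1 array, on the sublingual (circle), submandibular-labelled (square) and parotid (diamond) array, as log2 signal relative to the array's 75th percentile; open symbols are not well above background. Symbols of most heavy chains overlap, whereas probes of RT1-N1, RT1-N3, RT1-T24-1, RT1-M3, RT1-M5, RT1-CE5 and RT1-CE6 are among those with the parotid to the right, and all 4 B2m probes have it to the right.

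Of the class I-like genes, Cd1d1, which presents lipids to NKT cells, had levels of 3.81 in the sublingual, 3.51 in the submandibular-labelled and 3.31 in the parotid gland. Fcgrt, the neonatal Fc receptor that carries IgG across epithelia, had 3.13, 3.35 and 3.10. Neither reached 2-fold. RT1-Ke4 had 4.04, 4.47 and 4.11.

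Because whole glands were measured, fewer cells of a type and less RNA per cell cannot be told apart. Most leukocyte markers that could be compared were lower with the class II chains, and some were higher. Of 37 probed marker genes of leukocytes, B and plasma cells, T and NK cells, macrophages and dendritic cells, 27 were compared, and 22 were lower in the sublingual gland than in the parotid, 9 of them 2-fold. In the submandibular-labelled gland the counts were the same, 22 and 9. Cd37, Cd163 and Itgam were well above background in the parotid alone, so they could only be lower, and enter as bounds. Cd163 and Itgam are among those 2-fold lower. Prf1 could likewise only be lower in the sublingual gland, and Cd52 only higher in both glands. Among all RefSeq genes compared, 12.4% were 2-fold lower and 12.7% 2-fold higher in the sublingual gland, and 11.0% and 11.2% in the submandibular-labelled gland. Lower by any amount were 47.0% and 44.6% of them. Markers 2-fold higher numbered 2 in each gland. The markers' median difference was -0.56 and -0.54, where all RefSeq genes had 0.06 and 0.10, and it stayed below 0 under normexp, quantile normalization and median centring. The summed level of the 37 markers, in multiples of the array's 75th percentile, was 117 in the sublingual, 116 in the submandibular-labelled and 134 in the parotid gland. Of these sums, the macrophage and monocyte marker Cd14 alone gave 21.4, 25.9 and 2.28.

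Markers of the lymphoid cells that were lower included Jchain and Mzb1 of plasma cells and Cd3g and Cd3d of T cells. Blnk, the last of the 3 B and plasma cell genes compared, differed from the parotid by -0.26 in the sublingual and 0.19 in the submandibular-labelled gland. Jchain, the joining chain of IgA, had levels of 1.54 in the sublingual, 1.13 in the submandibular-labelled and 3.32 in the parotid gland. Cd3g had -0.65, -1.63 and 0.72. The macrophage marker Adgre1 had -1.49, -1.56 and 0.11, 3.03-fold and 3.20-fold lower than in the parotid, and Cd163 was well above background in the parotid alone. Of the 13 macrophage and monocyte genes compared 10 were lower in each gland, 4 of them 2-fold, where 47.0% and 44.6% of RefSeq genes were lower. Cd163 and Itgam, which could only be lower, are among those 4. The summed level of the list was 83.7 in the sublingual, 86.6 in the submandibular-labelled and 85.5 in the parotid gland. Of these sums, Cd14 alone gave 21.4, 25.9 and 2.28, so their near equality rests on that gene. Aif1 differed from the parotid by 0.53 and 0.16, Fcgr3a by 0.51 and 0.51, and Csf1r by -0.35 and -0.05. The 2 dendritic cell genes compared were split in the sublingual gland. Itgae differed from the parotid by 0.80 and -0.17, and Batf3 by -1.03 and -1.01. Beside these, Cd52 exceeded its parotid level at least 16.9-fold in the sublingual and at least 12.4-fold in the submandibular-labelled gland, and Cd14 did so 9.34-fold and 11.3-fold. The B cell markers Ms4a1 and Cd79b, the T cell markers Cd3e, Cd247, Cd2 and Cd5 and the dendritic cell markers Xcr1, Ccr7 and Zbtb46 were not well above background on any array. The part of leukocyte content in the class II difference was not tested.

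**Figure D5:**
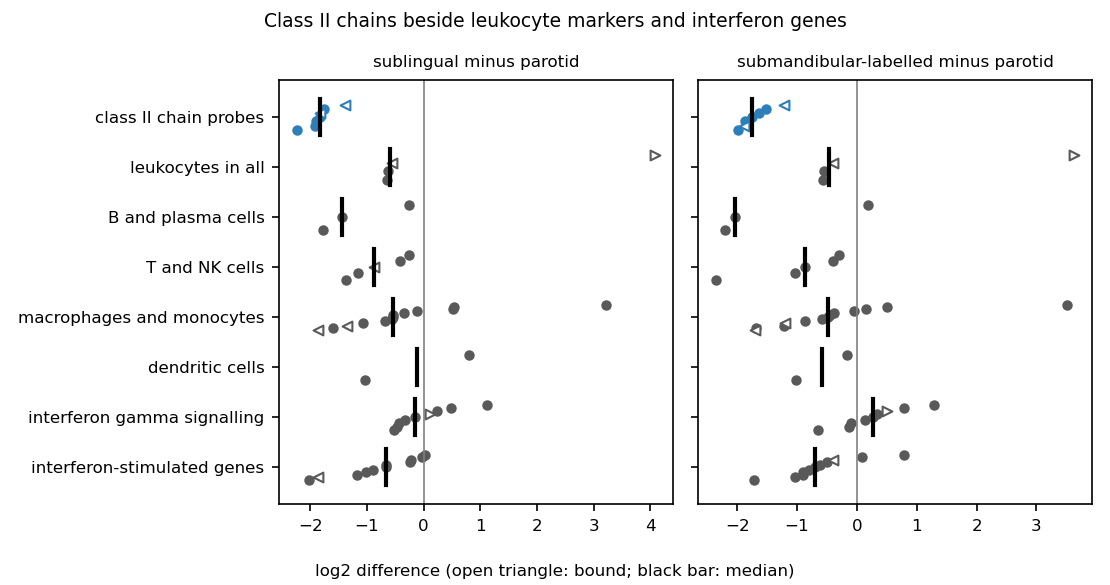
Log2 difference of class II chain probes (blue) beside genes of leukocyte marker lists and of interferon lists (grey), for sublingual minus parotid (left) and submandibular-labelled minus parotid (right); triangles are bounds and black bars medians. The class II medians of -1.82 and -1.75 lie below those of the macrophage list (-0.54 and -0.49) and of the interferon-stimulated genes (-0.66 and -0.69), and beside those of the 3 B and plasma cell genes compared (-1.43 and -2.03).

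Interferon gamma drives both classes, class II through Ciita. Of 9 interferon gamma signalling genes compared, of 10 with a probe, 0 were 2-fold lower in either gland, where 12.4% and 11.0% of RefSeq genes were. Their medians were -0.16 for sublingual minus parotid, which turned to 0.086 at most under another scaling, and 0.27 for submandibular-labelled minus parotid. Jak1, a kinase of the receptor, was 2.17-fold and 2.45-fold above the parotid, and Ifng itself was not well above background on any array. Of 11 interferon-stimulated genes compared, of 14, 4 were 2-fold lower in the sublingual and 2 in the submandibular-labelled gland, with medians of -0.66 and -0.69 that stayed below 0 under each scaling. Mx1, not well above background in the sublingual gland, could only be lower there and is among those 4. Rsad2, an antiviral enzyme, was 4.08-fold and 3.30-fold lower than in the parotid, and Isg15, a ubiquitin-like protein, had levels of 0.78, 0.77 and 1.80.

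The other lists of genes that handle class II or class I differed among themselves. Of 12 genes of class II processing and transcription compared, of 13, 0 were 2-fold lower in either gland, where 12.4% and 11.0% of RefSeq genes were, and 1, the asparaginyl protease Lgmn, was at the 2-fold threshold in the submandibular-labelled gland and 1.80-fold higher in the sublingual gland. Their medians were 0.02 and 0.00, with no stable sign across scalings. Nfya, a subunit of NF-Y, differed from the parotid by -0.98 and -0.67, and the protease Ctsb by -0.94 and -0.73. The other NF-Y subunits were split, with Nfyb at 0.35 and 0.51 and Nfyc at -0.35 and -0.37. Of 12 class I assembly and trimming genes, 10 were above 0 in each comparison, with medians of 0.44 and 0.45 that stayed above 0 under each scaling. Of all RefSeq genes 53.0% and 55.3% were above 0, with medians of 0.06 and 0.10. The assembly and trimming genes above 0 included the proteasome subunits Psmb5, Psmb6 and Psmb7, and Canx at only 0.06 and 0.0009. Sec61a1 and Tapbpl were below 0 in both comparisons. Pdia3, a disulfide isomerase of the loading complex, was 1.98-fold and 2.60-fold above the parotid. Of 4 receptors of T and NK cells compared, of 10, all 4 were lower in both glands, with medians of -1.02 and -1.73 that came as near 0 as -0.60 and -0.77 under another scaling. Those 2-fold lower numbered 2 in the sublingual and 3 in the submandibular-labelled gland, where 12.4% and 11.0% of RefSeq genes were. Cd8a, the coreceptor for class I, was well above background in the parotid alone, at -1.77, so it could only be lower in the other glands. Cd4, the coreceptor for class II, was not well above background on any array.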

How the data were processed

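Total RNA (500 ng) of the sublingual, submandibular and parotid glands was labelled with Cy3, per the labels' protocols, and samples were grouped by the gland in their labels. The deposited intensity of each spot was read, per the file headers, with Feature Extraction 10.1.1.1 (protocol GE1-v5_10_Apr08, array design 014879, build rn4), and other deposited columns hold flags of 0 or 1. The series' value table, made by the authors, holds a linear ratio per spot. It matched the processed signal over a constant for each array (250 for sublingual, 236 for submandibular-labelled, 190 for parotid), within 0.0142 on the log2 scale for signals above 1000, so its scale and direction are known. Its medians were 0.128, 0.122 and 0.152.

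Levels are log2 of the processed signal minus the array's 75th percentile over probes. Control spots were omitted, as were 73, 79 and 68 outlier spots, and repeat spots were averaged. For a probe dim on 1 array of a pair, the bound took the brighter level against whichever was higher, its own dim level or the lowest level well above background there. Of all probes, 19211 matched 1 RefSeq gene, by transcript identifier or, failing that, by current or older name. A gene of a list was represented by its probe with the highest mean level. The calling step was tested on a copy of the parotid array with added noise and known 4-fold changes in bright probes. That check does not cover changes of dim probes, bounds or differences between animals. The software was R 4.3.3 with limma 3.58.1, and Python 3.11.15 with pandas 2.3.3, numpy 2.4.6 and matplotlib 3.10.9. No test was possible.

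Members and gene lists were chosen with earlier results of these data known. Printed are all loading, class II, costimulatory and class I-like members above background, the 8 class I heavy chain probes with the largest differences and the 4 brightest, and up to 4 genes of each list by size of difference. The other members and genes printed, such as the remaining RT1-S3 and RT1-M6-2 probes and the undetected markers, were chosen after their values were seen. Alternatives were normexp background correction (offset 50), median centring, quantile normalization, the authors' ratios, stricter and looser filters on dim probes, outlier spots kept, a 4-fold threshold and 1 probe per gene name. The scalings were applied to the lists after seeing the data.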

Additional observations from a re-analysis of the deposited data

How the results depend on the processing

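No paired analysis was possible because each gland has 1 array and no result comes from a test, and for the same reason no array could be left out. The class II chain difference kept its direction in every setting. Its median for sublingual minus parotid was -1.82, with -1.59 under normexp, -1.99 under quantile normalization and -1.57 under median centring. For submandibular-labelled minus parotid it was -1.75, with -1.48, -1.87 and -1.44 under the same settings and -1.57 with 1 probe per gene name. For sublingual minus submandibular-labelled it was -0.12, and -0.26 under median centring. With the filter that takes probes positive and significant over background, RT1-DOa entered at 0.68 and 0.66 above the parotid. The class I heavy chain median moved to -0.44 and -0.14 under quantile normalization and to 0.042 and 0.31 under median centring, for sublingual and submandibular-labelled minus parotid. The class II median minus the class I median was -1.79 to -1.48 in these comparisons under every scaling and filter.

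The class I loading median for submandibular-labelled minus parotid was 0.011 under median centring and -0.031 with 1 probe per gene name, and for sublingual minus parotid -0.30 under median centring. The median of the Cd74 and Ctss probes, in which Ctss counts for 2 of 3, was 0.43 and 0.61 under quantile normalization and 0.995 and 1.18 under median centring. With 1 probe per gene name it was -0.50 and -0.26, and -0.24 for sublingual minus submandibular-labelled, since Ctss then counts once.

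Member probes 2-fold lower numbered 8 in each comparison with the parotid under normexp, against 14, and 1 (sublingual) and 0 (submandibular-labelled) at 4-fold. Those 2-fold higher numbered 2 and 4 under median centring and 0 and 1 under normexp. Between sublingual and submandibular-labelled 1 was higher with the filter on positive and significant probes. Median centring raised the median of all probes from 0.02 to 0.25 and from 0.00 to 0.32. Of 104 differences of named probes, 87 kept their sign in every setting. Except where spots repeat, the error of a single array is unknown. The lists' medians under each scaling were computed after seeing the data. That of the leukocyte markers ranged from -0.87 to -0.31 for sublingual minus parotid and from -0.72 to -0.23 for submandibular-labelled minus parotid.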
